A study of Mus musculus with 26 samples.

Results

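The genes described here are 38 genes of the cell cycle that act in DNA replication, chromosome segregation and cell division. The rule that picks them uses gene symbols alone. Each of the 38 symbols matched 1 of the 39017 gene rows in the adipocyte table and in the stromal vascular table. All 38 passed the filter on low counts in the 3 fits reported, so none is missing from the comparisons that follow. A stricter alternative, at least 10 counts in every library, tested 32 of them in adipocytes, 27 in SVC and 25 over both fractions. By role, 10 of them act in DNA replication and nucleotide supply, 4 are the mitotic cyclins and their kinase, 7 are mitotic and checkpoint kinases, 4 belong to the kinetochore, 5 are spindle motors and microtubule proteins, 4 act in cytokinesis or the chromosomal passenger complex, 2 serve the anaphase-promoting complex and 2 organise the chromosome itself.

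The study asked which transcripts changed by obesity stay changed after weight loss. Male wild type C57BL/6J mice started on their diets at 9 to 10 weeks of age. Lean mice (LFD) ate a diet with 10% fat for 12 weeks, obese mice (HFD) ate a diet with 60% fat for 12 weeks, and formerly obese mice (SW) ate the 60% diet for 9 weeks and then the 10% diet for 3 weeks. Titles of the SW records call these mice low-fat fed, so the diet history was taken from the treatment label. Epididymal fat was digested with collagenase and spun into floating adipocytes and a pellet of stromal vascular cells (SVC), the mixed immune, vascular and progenitor cells of fat, and red blood cells were lysed in the pellet alone. Neither fraction was sorted, so each can hold cells of the other kind. Libraries of polyA RNA were sequenced, and the tables gave 3 adipocyte libraries for each diet, and 1 LFD, 2 HFD and 3 SW libraries of SVC. Totals ran from 6142895 to 23725647 counts per adipocyte library and from 5781902 to 22195810 per SVC library. Levels are given as CPM, counts divided by the library total in units of 1000000 counts, scaled with TMM factors over the 15 libraries. Values of a group are listed in the order of the column numbers, which are 404, 405 and 406 for adipocyte LFD, 401, 402 and 403 for HFD, 407, 408 and 409 for SW, then 236 for SVC LFD, 212 and 411 for HFD, and 412, 413 and 414 for SW.

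A dividing cell copies its DNA once in S phase and separates the copies in mitosis. The MCM helicase opens the DNA, PCNA clamps the polymerases to it, and ribonucleotide reductase supplies the deoxynucleotides. Cyclin A and the B-type cyclins then drive CDK1, aurora and polo-like kinases build the spindle, the kinetochore joins chromosomes to it, and the anaphase-promoting complex ends mitosis by marking cyclin B for destruction. These genes are transcribed in waves. Replication genes are known for E2F sites in their promoters, and mitotic genes for a CHR element, usually beside CCAAT boxes, through which the DREAM and MuvB complexes act. Mature adipocytes are regarded as non-dividing, while macrophages and progenitors of fat can divide, and macrophages gather in the fat of obese mice.

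Promoter sequences from RefSeq on GRCm38.p6 were present for 33 of the 38 genes, and for each the 250 bases before and 50 bases after the first listed start were searched on both strands. Ccna2, Kif20a, Mcm4, Aurkb and Tpx2 were not matched. A CHR, taken as the word TTTGAA, the word TTTAAA or the word TTCGAA, occurred in 26 of 33 promoters (78.8%), against 29% of all 27025 promoters of the table and 21% of the 10374 that belong to genes tested in adipocytes. CCAAT occurred in 28 of 33 (84.8%), against 37.9% and 38.6%. An E2F site, taken as the word TTTCCCGC, the word TTTGGCGC, the word TTTCGCGC or the word TTTGCCGC, occurred in 5 of 33 (15.2%), against 2.32% and 3.98%. None of the motifs is contained in another, though matches of 2 E2F words can share bases. The replication genes held the CHR in 4 of 9 and an E2F word in 4 of 9, while the other 24 genes held the CHR in 22 and an E2F word in 1, Cdk1.

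The 160 bases before the start are shown for 4 genes on whose values the adipocyte results turn, with the motifs in capitals. Plk1, the polo-like kinase of mitotic entry, has 2 CHR words and a CCAAT box here. Cdk1, the kinase of the mitotic cyclins, has an E2F word, 2 CCAAT boxes on the opposite strand (ATTGG) and 2 CHR words. Mcm5, a subunit of the replicative helicase, has 2 E2F words that share bases, one on each strand, and 2 CCAAT boxes. Tyms, thymidylate synthase, has none of these words, as is the case for Nuf2 and Melk. Between obese and lean mice Nuf2 and Melk passed the test described next and Tyms did not. A match is only a description of the letters.
Plk1, chr7:122159275-122159434, + strand: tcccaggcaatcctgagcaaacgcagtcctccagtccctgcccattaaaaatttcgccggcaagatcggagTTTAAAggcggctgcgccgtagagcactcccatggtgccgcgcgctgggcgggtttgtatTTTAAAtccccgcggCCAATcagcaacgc
Cdk1, chr10:69352913-69353072, - strand: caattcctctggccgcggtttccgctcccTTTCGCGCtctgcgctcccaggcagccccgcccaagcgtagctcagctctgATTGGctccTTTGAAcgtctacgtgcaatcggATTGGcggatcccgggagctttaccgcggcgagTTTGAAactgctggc
Mcm5, chr8:75109349-75109508, + strand: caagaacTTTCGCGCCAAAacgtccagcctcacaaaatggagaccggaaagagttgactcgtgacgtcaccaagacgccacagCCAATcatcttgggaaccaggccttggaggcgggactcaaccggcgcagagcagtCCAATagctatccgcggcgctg
Tyms, chr5:30073626-30073785, - strand: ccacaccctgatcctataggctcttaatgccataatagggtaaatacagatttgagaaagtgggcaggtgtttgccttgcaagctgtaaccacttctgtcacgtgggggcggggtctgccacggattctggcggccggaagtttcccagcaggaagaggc

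In adipocyte libraries, 37 of the 38 genes were higher in HFD than in LFD mice and none was lower. The quasi-likelihood test of edgeR was used, and p-values were adjusted by Benjamini-Hochberg over all 14461 genes tested, of which 26.5% were higher and 25% lower. The median log2 fold change of the 38 genes was 1.86, with a range from 0.07 to 2.77, while the median of all genes tested was -0.03 and 9 in 10 of them lay below 1.36. Without each library in turn, 33 to 37 of the 38 passed. Of the 37 calls, 31 could be tested in every alternative and 27 held in every one, and Aurkb, Bub1, Ccnb1, Melk, Nuf2 and Ttk held wherever they were tested but had too few counts for the strictest filter. In bulk libraries of this kind, more cells of a type and more RNA per cell cannot be told apart.

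**Figure D1:**
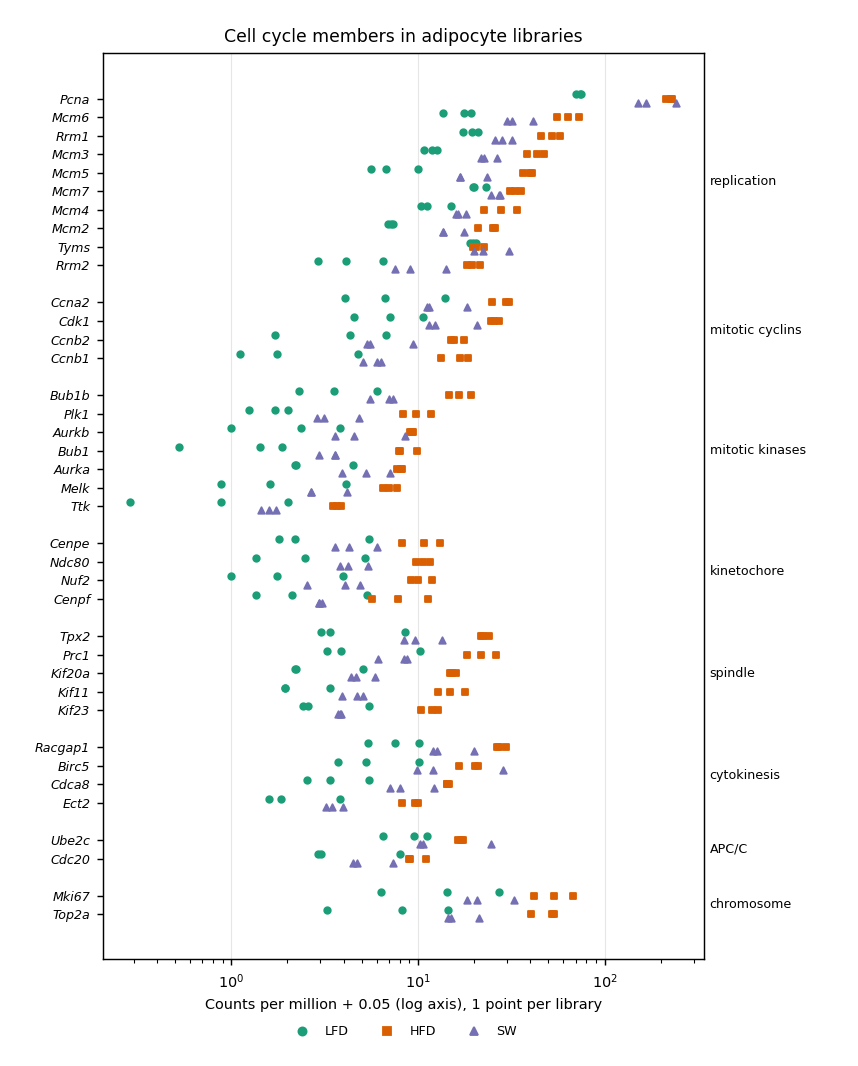
Level of each of the 38 genes in the 9 adipocyte libraries, as CPM + 0.05 on a log axis, 1 point per library, with green circles for LFD, orange squares for HFD and purple triangles for SW, genes grouped by role. The HFD points sit to the right of the LFD points for the 37 genes that passed the test, Tyms lies between 19 and 30.7 CPM in all 9 libraries, and the SW points lie mostly between the other 2 diets.

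Among the replication genes, 9 of 10 rose in HFD adipocyte libraries, with Tyms the exception. The smallest p was that of Mcm3, a helicase subunit, with 11.9, 12.6 and 10.7 CPM in LFD libraries, 47.1, 38.4 and 43.2 in HFD libraries and 26.6, 22.6 and 21.7 in SW libraries. No 2 diet groups overlapped for Mcm3, and the log2 fold change of HFD against LFD was 1.85 ± 0.14 (SE, adjusted p = 9.74e-06). Mcm5 had the largest difference of the group, with 9.90, 6.68 and 5.58 CPM in LFD libraries, 40.8, 36.5 and 40.0 in HFD libraries and 23.4, 16.7 and 16.8 in SW libraries and a log2 fold change of 2.41 ± 0.21 (SE, adjusted p = 2.28e-05), a 5.30-fold rise. Tyms, which makes the thymidine nucleotide, stood at 19.7, 20.4 and 19 CPM in LFD libraries, 20.5, 22.7 and 19.7 in HFD libraries and 30.7, 20.0 and 22.2 in SW libraries. Its groups overlapped, and its log2 fold change was 0.07 ± 0.16 (SE, adjusted p = 0.732). The other helicase subunits Mcm2, Mcm4, Mcm6 and Mcm7 rose by 1.74, 1.20, 1.91 and 0.65 on the log2 scale. Mcm7 had the smallest rise among the genes that passed, with 19.9, 19.7 and 23.2 CPM in LFD libraries, 35.4, 31 and 33.2 in HFD libraries and 27.5, 24.5 and 27.1 in SW libraries. The subunits Rrm1 and Rrm2 of ribonucleotide reductase rose by 1.41 and 2.16, and the clamp Pcna by 1.59.

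All 4 genes of the mitotic cyclins and their kinase rose. Cyclin B1, Ccnb1, had the smallest p, with 4.74, 1.70 and 1.07 CPM in LFD libraries, 18.4, 13.2 and 16.7 in HFD libraries and 5.99, 6.28 and 5.01 in SW libraries, and its log2 fold change was 2.77 ± 0.39 (SE, adjusted p = 0.000318). In raw counts it stood at 34, 37 and 9 in LFD libraries, against 274, 348 and 412 in HFD libraries. Cdk1 had 10.6, 7.0 and 4.52 CPM in LFD libraries, 25.6, 24.6 and 27.3 in HFD libraries and 20.8, 12.3 and 11.4 in SW libraries, and again no 2 diets overlapped. Cyclin A2, Ccna2, had 13.9, 6.63 and 4.04 CPM in LFD libraries, 30.5, 25 and 29.5 in HFD libraries and 18.3, 11.1 and 11.4 in SW libraries. The rises of Ccna2, Ccnb2 and Cdk1 were 1.81, 1.93 and 1.81 on the log2 scale, so Ccnb1 had the largest estimate, with standard errors between 0.30 and 0.39.

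The 7 mitotic and checkpoint kinases all rose, by 1.48 to 2.77 on the log2 scale. Plk1 had the smallest p, with 1.95, 1.66 and 1.19 CPM in LFD libraries, 11.7, 8.31 and 9.70 in HFD libraries and 4.78, 2.84 and 3.08 in SW libraries, and a log2 fold change of 2.61 ± 0.28 (SE, adjusted p = 6.16e-05). Bub1, a spindle checkpoint kinase, had the largest difference of all 38 genes, with 1.81, 1.38 and 0.475 CPM in LFD libraries, 9.87, 7.89 and 8.01 in HFD libraries and 3.56, 3.54 and 2.89 in SW libraries, and a log2 fold change of 2.77 ± 0.33 (SE, adjusted p = 0.000115). Its counts were 13, 30 and 4 in LFD libraries and 147, 208 and 198 in HFD libraries. The partner checkpoint kinase Bub1b rose by 2.12, and Ttk, which starts checkpoint signalling at the kinetochore, by 1.91 from counts of 14, 18 and 2 in LFD libraries. Aurka, the kinase of the spindle poles, had 4.46, 2.16 and 2.14 CPM in LFD libraries, 8.05, 7.70 and 8.13 in HFD libraries and 7.03, 3.86 and 5.20 in SW libraries. Aurkb, the kinase of the chromosomal passenger complex, had 3.76, 2.30 and 0.951 CPM in LFD libraries, 9.33, 9.03 and 9.22 in HFD libraries and 8.43, 4.51 and 3.53 in SW libraries. Melk rose by 1.77.

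Kinetochore genes rose in 4 of 4 cases. Nuf2, a subunit of the microtubule-binding NDC80 complex, had 3.90, 1.70 and 0.951 CPM in LFD libraries, 11.9, 9.14 and 9.91 in HFD libraries and 4.87, 4.02 and 2.51 in SW libraries, and a log2 fold change of 2.28 ± 0.41 (SE, adjusted p = 0.00127). Ndc80 itself rose by 1.87, the motor Cenpe by 1.85 and Cenpf by 1.55. Of the spindle genes, 5 of 5 rose. Kif11, the motor that pushes the spindle poles apart, had 3.35, 1.89 and 1.90 CPM in LFD libraries, 17.8, 12.8 and 14.8 in HFD libraries and 5.06, 3.86 and 4.69 in SW libraries, and a log2 fold change of 2.71 ± 0.25 (SE, adjusted p = 2.74e-05). Tpx2, which activates Aurka on the spindle, had 8.51, 3.32 and 2.97 CPM in LFD libraries, 24.1, 22.3 and 21.8 in HFD libraries and 13.5, 9.60 and 8.35 in SW libraries. The motors Kif20a and Kif23 of the central spindle rose by 2.36 and 1.79, and the microtubule bundler Prc1 by 2.0.

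The genes of cytokinesis and the passenger complex rose in 4 of 4 cases. Cdca8, the passenger subunit borealin, had 5.44, 3.32 and 2.50 CPM in LFD libraries, 14.2, 14.7 and 14.3 in HFD libraries and 12.1, 7.03 and 7.97 in SW libraries, with no overlap between diets and a log2 fold change of 1.96 ± 0.28 (SE, adjusted p = 0.000325). Survivin (Birc5), Ect2 and Racgap1, the last pair being partners that place the cleavage furrow, rose by 1.63, 2.0 and 1.85. The smallest rises outside the replication genes were those of the anaphase-promoting complex. Its activator Cdc20 had 7.95, 2.85 and 2.97 CPM in LFD libraries, 10.9, 8.95 and 9.06 in HFD libraries and 7.31, 4.45 and 4.69 in SW libraries, a log2 fold change of 1.12 ± 0.37 (SE, adjusted p = 0.0285), and its ubiquitin-conjugating enzyme Ube2c one of 0.88 ± 0.33 (SE, adjusted p = 0.0451). Topoisomerase II alpha, Top2a, had 14.5, 8.15 and 3.21 CPM in LFD libraries, 53.5, 40.3 and 52.5 in HFD libraries and 21.1, 15 and 14.5 in SW libraries, and rose by 2.50 ± 0.39 (SE) on the log2 scale. The proliferation marker Mki67 rose by 1.77 ± 0.42 (SE), and its LFD libraries were spread from 6.30 to 27.0 CPM.

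Levels can be ordered between genes only per length of transcript, taken here as the longest transcript of each gene. The order below depends on that choice, and other transcripts of a gene were not tried. In HFD adipocyte libraries Pcna had the highest level, 147 CPM per kilobase and the next gene was Mcm6 at 14.7. Mcm3, Mcm5 and Mcm7 followed at 12.5, 11.6 and 11.2. Ccnb2 at 10.5 and Ccna2 at 9.55 were the highest of the mitotic genes. Ttk at 1.27 and Cenpf at 0.740 were the lowest.

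After the switch to the low-fat diet, 29 of the 38 genes were lower in SW than in HFD adipocyte libraries and none was higher. Of all genes tested in that comparison, 15.9% were lower and 15.6% higher. The median log2 fold change of the 38 genes was -1.09, against 0.01 for all genes. The genes that did not pass were Aurka, Aurkb, Birc5, Cdc20, Cdca8, Mcm7, Pcna, Tyms and Ube2c. The fall included 4 of 4 cyclin and kinase genes, 4 of 4 kinetochore genes, 5 of 5 spindle genes, both chromosome genes, 5 of 7 kinases, 2 of 4 cytokinesis genes, 7 of 10 replication genes and neither gene of the anaphase-promoting complex. Leaving out 1 library moved the count between 13 and 31. It was 15 without HFD library 401, 13 without HFD library 403, 18 without SW library 408 and 16 without SW library 409. The 12 calls that held in every alternative were Bub1b, Ect2, Kif11, Kif20a, Kif23, Mcm2, Mcm3, Mcm5, Mcm6, Plk1, Prc1 and Rrm1, and Bub1 held wherever it was tested but had too few counts for the strictest filter.

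Kif11 had the largest fall, a log2 fold change of -1.73 ± 0.22 (SE, adjusted p = 0.00303), from a range of 12.8 to 17.8 CPM in HFD libraries to one of 3.86 to 5.06 CPM in SW libraries. Its fellow motors Kif20a and Kif23 fell by 1.63 and 1.61 on the log2 scale, and the SW libraries of Kif23, from 3.66 to 3.84 CPM, lay inside the LFD range of 2.38 to 5.44 CPM. Plk1 fell to 2.84 to 4.78 CPM, with a log2 fold change of -1.48 ± 0.25 (SE, adjusted p = 0.00546). Pcna, in contrast, stood at 74, 74.9 and 70.1 CPM in LFD libraries, 226, 213 and 229 in HFD libraries and 242, 168 and 151 in SW libraries, so its SW libraries reached on both sides of the HFD libraries, and its log2 fold change was -0.24 ± 0.17 (SE, adjusted p = 0.296). Birc5 had 10.0, 5.20 and 3.68 CPM in LFD libraries, 16.5, 21.1 and 20.1 in HFD libraries and 28.7, 9.82 and 12 in SW libraries. Ube2c had 11.2, 9.49 and 6.42 CPM in LFD libraries, 17, 17.3 and 16.3 in HFD libraries and 24.6, 10.6 and 10.2 in SW libraries. For Birc5, Ube2c, Pcna and Tyms, SW library 407 was above all 3 HFD libraries. That library was the highest of the SW libraries for the 38 genes together, with a summed level of 768 CPM against 541 and 513. Without it 31 genes were lower, now including Aurkb, Cdca8, Pcna and Ube2c and no longer Cenpf and Ttk. With the transcript length correction 23 genes were lower, and Pcna was among them.

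**Figure D2:**
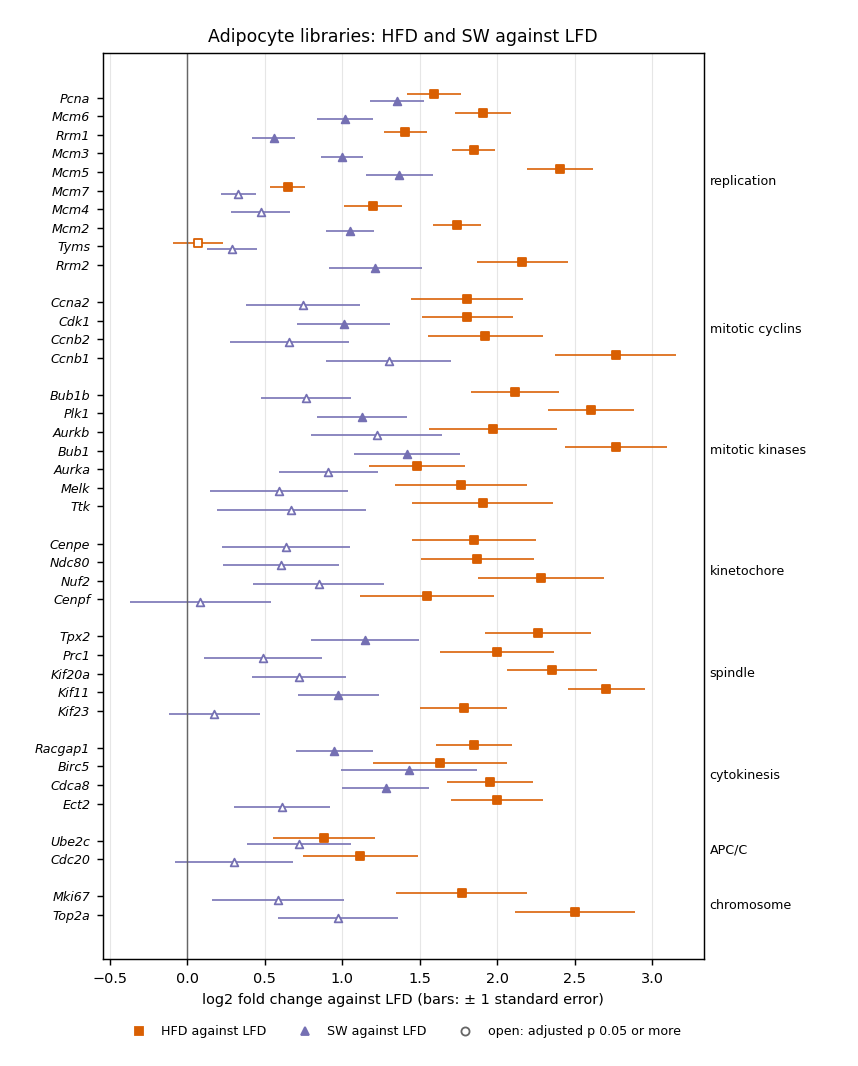
Log2 fold change of each of the 38 genes in adipocyte libraries, with bars of 1 standard error, for HFD against LFD (orange squares) and SW against LFD (purple triangles), where open symbols did not pass the test. The HFD symbols are filled for 37 genes and lie between 0.65 and 2.77, and the SW symbols lie to their left for 37 genes, filled for 15.

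Against lean mice, 15 of the 38 genes were still higher in SW adipocyte libraries and none was lower. Of all genes tested, 10.9% were higher and 6.18% lower. The median log2 fold change was 0.81, against 0.00 for all genes. By role the split was uneven in counts, with 7 of 10 replication genes (Mcm2, Mcm3, Mcm5, Mcm6, Pcna, Rrm1 and Rrm2), 3 of 4 cytokinesis genes (Birc5, Cdca8 and Racgap1), 2 of 7 kinases (Bub1 and Plk1), 2 of 5 spindle genes (Kif11 and Tpx2), 1 of 4 in the cyclin group (Cdk1) and none of the kinetochore, anaphase-promoting complex or chromosome genes. Whether roles differed was not tested. The count rested on single libraries. It was 28 without LFD library 404, 5 without LFD library 405, 7 without LFD library 406 and 8 without SW library 407. The 5 calls held in every alternative were Mcm2, Mcm3, Mcm5, Mcm6 and Pcna.

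Pcna had a log2 fold change of 1.35 ± 0.17 (SE, adjusted p = 0.000554), close to that of HFD against LFD, 1.59 ± 0.17. Mcm5 had 1.37 ± 0.21 (SE, adjusted p = 0.00179) and Mcm3 had 1.00 ± 0.14 (SE, adjusted p = 0.000795), both with every SW library above every LFD library. Cdk1 had 1.01 ± 0.30 (SE, adjusted p = 0.0432) and Kif11 had 0.98 ± 0.26 (SE, adjusted p = 0.0278). Among replication genes that did not pass, Mcm4 stood at 14.9, 11.1 and 10.3 CPM in LFD libraries, 33.9, 22.6 and 27.7 in HFD libraries and 16, 18.1 and 16.3 in SW libraries, with a log2 fold change of 0.48 ± 0.19 (SE, adjusted p = 0.115). For Mcm7 the value was 0.33 ± 0.11 (SE, adjusted p = 0.0765), although no 2 diets overlapped. Ect2, the cytokinesis gene that did not pass, had 3.76, 1.80 and 1.54 CPM in LFD libraries, 9.93, 8.12 and 9.58 in HFD libraries and 3.93, 3.17 and 3.41 in SW libraries. LFD library 404 was the highest LFD library for the 38 genes together, with a summed level of 405 CPM against 302 and 249. Every HFD library lay above every SW library, and every SW library above every LFD library, for 15 of the 38 genes, against 7.92% of all genes tested in adipocytes. These were Bub1, Ccnb1, Cdca8, Cdk1, Kif11, Mcm2, Mcm3, Mcm4, Mcm5, Mcm6, Mcm7, Plk1, Racgap1, Rrm1 and Rrm2. The HFD and SW comparisons share libraries, so their values are given side by side only.

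Other genes of the cell cycle in adipocyte libraries were read from lists chosen by function. Counts of the adipocyte lists, here and below, are read beside the shares of all genes tested. In HFD against LFD 26.5% were higher and 25% lower. In SW against HFD 15.6% were higher and 15.9% lower, and in SW against LFD 10.9% and 6.18%. Of 38 further kinetochore, spindle and mitosis genes, 34 were higher and 1 lower in HFD than in LFD libraries, 25 were lower and 1 higher in SW than in HFD, and 11 were higher in SW than in LFD. The smallest p among them was that of the checkpoint gene Mad2l1, with a log2 fold change of 1.97 ± 0.17 (SE, adjusted p = 1.85e-05) in HFD. Dlgap5 followed with 3.03 ± 0.34 (SE, adjusted p = 8.1e-05). The 1 gene that went the other way was securin, Pttg1, which holds separase in check until anaphase. It had 44.9, 60.8 and 65.1 CPM in LFD libraries, 20.7, 24.1 and 20.5 in HFD libraries and 51.8, 41.8 and 42.7 in SW libraries, a log2 fold change of -1.41 ± 0.15 (SE, adjusted p = 6.86e-05) in HFD and one of 1.07 ± 0.15 (SE, adjusted p = 0.00369) in SW against HFD. Of 17 genes of origin licensing and firing, 9 rose and 1 fell in HFD, with Cdt1 at 2.50 ± 0.25 (SE, adjusted p = 4.06e-05) and Mcm10 at 2.84 ± 0.31 (SE, adjusted p = 6.89e-05) on the log2 scale, and Orc6 the 1 that fell. After the switch 4 fell and none rose, and 4 were above LFD. Of 22 polymerase, fork and nucleotide genes, 16 rose and 2 fell in HFD, led by Pola1 at 1.49 ± 0.17 (SE, adjusted p = 9.12e-05) and Tk1 at 2.74 ± 0.32 (SE, adjusted p = 9.64e-05), with Pola2 and Rpa3 the 2 that fell. In SW, 6 of the 22 were below HFD and 1 above, and 9 were above LFD and 1 below.

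Of the 20 genes of pocket proteins, E2F factors and the DREAM or MuvB complexes, 11 rose and 1 fell in HFD. Lin9, a MuvB subunit, had a log2 fold change of 1.75 ± 0.23 (SE, adjusted p = 0.000241) and Mybl2, which joins MuvB in S phase, 1.97 ± 0.32 (SE, adjusted p = 0.000687). The 1 that fell was another MuvB subunit, Lin52, at -0.86 ± 0.17 (SE, adjusted p = 0.00241). In SW, 10 of the 20 were below HFD and none above, with Foxm1, the forkhead factor of mitotic genes, at -1.48 ± 0.33 (SE, adjusted p = 0.0111). Against LFD, E2f1 was higher at 0.70 ± 0.20 (SE, adjusted p = 0.0345) and Lin52 lower at -0.71 ± 0.17 (SE, adjusted p = 0.0191).

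The G1 genes did not move in one direction. Of 9, 4 rose (Ccnd1, Ccne1, Ccne2 and Cdk6) and 2 fell (Ccnd3 and Cdk2) in HFD. Cyclin D1, Ccnd1, had 59.1, 45.2 and 38.9 CPM in LFD libraries, 115, 80.2 and 113 in HFD libraries and 30.8, 37.9 and 41.1 in SW libraries, with a rise of 1.09 ± 0.20 (SE, adjusted p = 0.00139) in HFD and a change of -1.47 ± 0.20 (SE, adjusted p = 0.00336) in SW against HFD on the log2 scale. Cyclin D3, Ccnd3, mirrored it with 155, 185 and 189 CPM in LFD libraries, 60.5, 70.0 and 59.8 in HFD libraries and 145, 106 and 119.8 in SW libraries, -1.49 ± 0.15 (SE, adjusted p = 3.66e-05) in HFD and 0.98 ± 0.14 (SE, adjusted p = 0.00406) in SW against HFD. Cyclin D2, Ccnd2, did not pass, at 0.46 ± 0.32 (SE, adjusted p = 0.257) and -0.64 ± 0.32 (SE, adjusted p = 0.148). In SW against HFD, Ccne2 also fell. In SW against LFD, Ccne1 was higher and Ccnd3 and Cdk2 were lower.

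Of the 7 CDK inhibitors, which hold cells in G1, none rose and 3 fell in HFD, and the same 3 rose in SW against HFD. Cdkn1c (p57) had 28.7, 35.6 and 41.1 CPM in LFD libraries, 13.7, 12.6 and 13.1 in HFD libraries and 29.1, 27.5 and 24.2 in SW libraries, with -1.44 ± 0.14 (SE, adjusted p = 3.83e-05) in HFD against LFD and 1.05 ± 0.14 (SE, adjusted p = 0.00316) in SW against HFD. Cdkn2c (p18) had -1.29 ± 0.14 (SE, adjusted p = 7.25e-05) and 0.86 ± 0.14 (SE, adjusted p = 0.00518) in the same comparisons, and Cdkn2d (p19) had -0.51 ± 0.15 (SE, adjusted p = 0.0175) and 0.50 ± 0.15 (SE, adjusted p = 0.0304). Cdkn1a (p21), Cdkn1b (p27), Cdkn2a and Cdkn2b did not pass in HFD, with log2 fold changes of 0.07, 0.19, 0.49 and -0.12. No CDK inhibitor passed between SW and LFD. Of 11 genes, made up of p53 itself (Trp53) and its targets, 3 rose and 1 fell in HFD. The share that rose was near the 26.5% of all genes, and 25% of all genes fell. Sesn1 was at 1.31 ± 0.14 (SE, adjusted p = 5.44e-05) and Mdm2 at 0.76 ± 0.10 (SE, adjusted p = 0.000183). In SW, 1 rose and 2 fell against HFD, and 3 were above LFD.

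Markers of cell types were also read in the adipocyte libraries, and not all of them moved with these results. Macrophage markers, 11 of 11, were higher in HFD than in LFD, led by Adgre1 (F4/80) at 4.49 ± 0.20 (SE, adjusted p = 6.04e-06) and Itgax (CD11c) at 4.37 ± 0.33 (SE, adjusted p = 1.08e-05) on the log2 scale. In SW, 6 of the 11 were below HFD and none above, and 9 were above LFD. The summed level of the 11 markers was 440 to 796 CPM in LFD libraries, 6382 to 7500 in HFD libraries and 4394 to 6116 in SW libraries, and none was at 0. The summed level of the 38 cell cycle genes was 249 to 405, 931 to 1106 and 513 to 768 CPM in the same groups. For every 100 CPM of macrophage markers, the 38 genes together therefore gave 41.2 to 56.7 CPM in LFD, 13.8 to 15.0 in HFD and 11.7 to 12.6 in SW libraries. The part of macrophages in the cell cycle result was not tested.

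Of the adipocyte markers, 10 of 10 were higher in adipocyte than in SVC libraries in both HFD and SW mice. Within adipocyte libraries 7 of the 10 were lower in HFD than in LFD, and their summed level was 28137 to 39085 CPM in LFD, 11133 to 19174 in HFD and 24444 to 25206 in SW libraries, against 1144 to 1368 in HFD and 802 to 1114 in SW libraries of SVC. In SW, 4 were above HFD and 1 was below LFD. Fibroblast and progenitor markers had 2 of 8 higher (Col1a1 and Pdgfra) and 1 lower (Ly6a) in HFD, where 26.5% of all genes were higher and 25% lower. Markers of T cells (6 tested), B cells (4) and neutrophils (3) had none past the test in HFD against LFD, and in SW against HFD 1 T cell marker and 2 B cell markers were higher. Their sums stayed at or below 37.2 CPM in adipocyte libraries, and the neutrophil marker Ly6g was at 0 there. Endothelial markers had 4 of 6 lower in HFD, mesothelial markers 3 of 5 and erythroid markers 5 of 5.

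**Figure D3:**
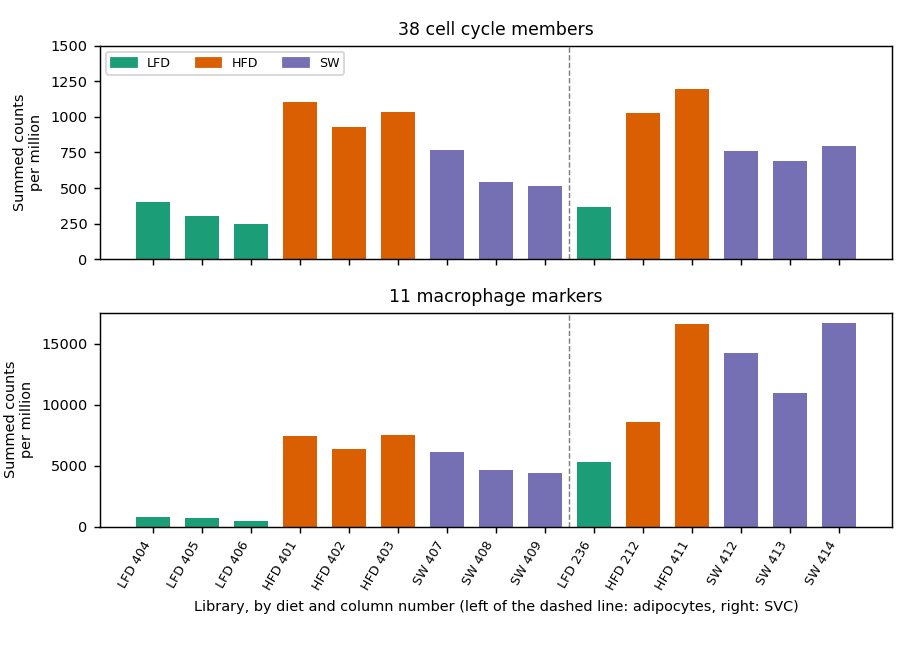
Summed level in CPM of the 38 cell cycle genes (top) and of the 11 macrophage markers (bottom) in each of the 15 libraries, coloured by diet, with adipocyte libraries left of the dashed line and SVC libraries right of it. In adipocyte libraries both sums are lowest in LFD and highest in HFD, with SW at 513 to 768 CPM for the cell cycle genes, and the SVC libraries show 4.75 to 12.0 CPM of cell cycle genes for each 100 CPM of macrophage markers.

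The SVC libraries differed among themselves in ways that bear on the comparisons. Hemoglobin took 0.29% of the counts of HFD library 212 but 2.76% to 5.15% in the other 5 SVC libraries, and mitochondrial genes took 33.5% of HFD library 411 but 4.36% to 9.54% of the other 5. Libraries also differed by the GC content of the transcripts they held. The tilt was measured as the median log2 level, relative to the mean of all libraries, of the fifth of genes with the highest GC content less that of the fifth with the lowest. It was -0.74, -0.58 and -0.65 in LFD, -1.03, -0.96 and -0.96 in HFD and -0.56, -0.84 and -0.68 in SW adipocyte libraries. In SVC it was -0.46 in HFD library 212, 0.28 in HFD library 411, 1.80 in the LFD library and 1.56 to 1.96 in the 3 SW libraries. In SVC the GC tilt thus changed together with diet, and in adipocytes every HFD library lay below every LFD and SW library. A tilt by transcript length, of long against short transcripts, was also read. In adipocytes it was 0.45, 0.13 and 0.19 in LFD, 0.80, 0.54 and 0.74 in HFD and -0.32, 0.20 and 0.10 in SW libraries. Every HFD library lay above every LFD and SW library there. In SVC it was 0.58 and -0.13 in HFD, 0.03 in LFD and -0.94, -0.35 and -0.74 in SW libraries. In both fractions the parts of these tilts and of diet cannot be told apart. Results are therefore given with a GC correction, and without library 212 or 411, beside the values as first fitted.

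In SVC, 13 of the 38 genes were lower in SW than in HFD libraries and none was higher, where 11.7% of the 16319 genes tested were lower and 5.71% higher. They were Bub1, Ccna2, Kif11, Kif23, Mcm4, Mki67, Ndc80, Nuf2, Pcna, Prc1, Rrm2, Top2a and Tpx2. The median log2 fold change of the 38 was -0.94, against 0.03 for all genes. These calls moved with those of the whole table, where 2849 genes were called. With the GC correction no gene of the table passed in edgeR, and none of the 38. The same held without SW library 412 and without SW library 413. At an unadjusted p under 0.05, 18, 14 and 19 of the 38 genes passed in these 3 fits, among 4859, 4217 and 5435 of all genes. Without HFD library 212, 503 genes passed, among them 4 of the 38 (Kif11, Mki67, Pcna and Top2a), and the same 4 were among 593 genes without SW library 414. Without HFD library 411, 6213 genes passed, among them 19 of the 38, of which Mcm5 was higher.

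**Figure D4:**
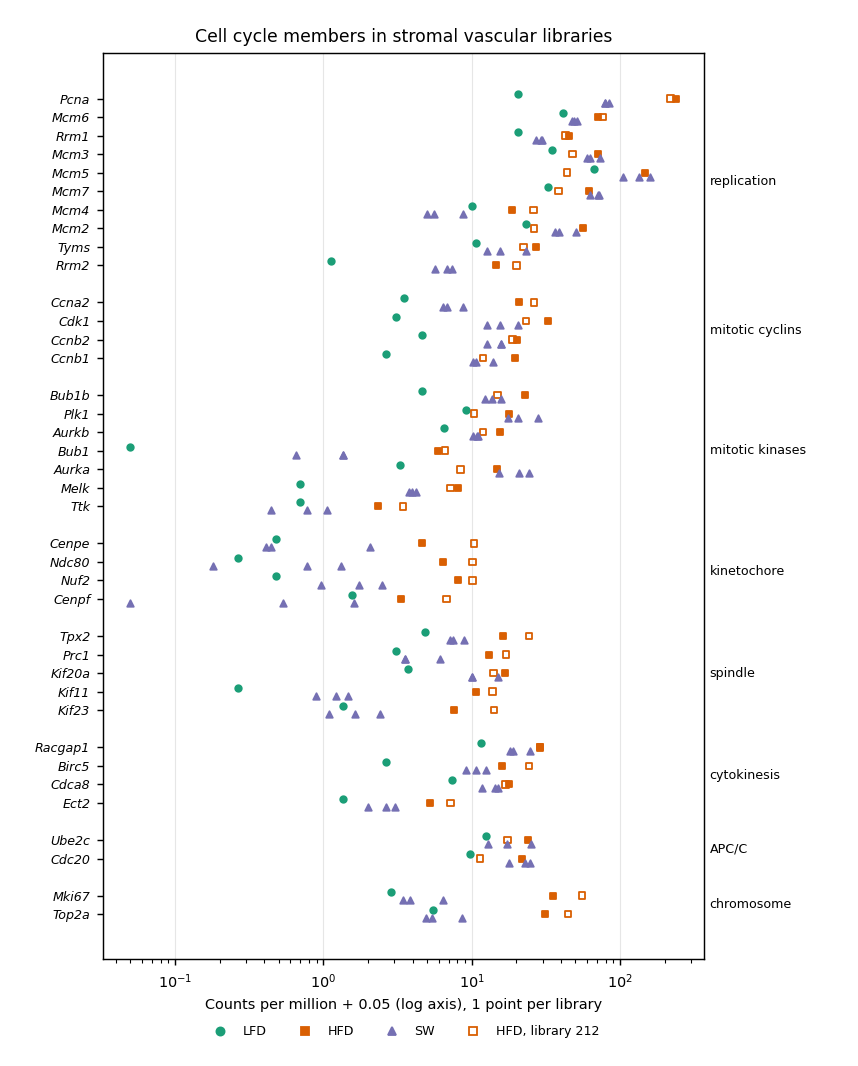
Level of each of the 38 genes in the 6 SVC libraries, as CPM + 0.05 on a log axis, 1 point per library, with the LFD library as a green circle, HFD libraries as orange squares (open for library 212) and SW libraries as purple triangles. SW points of Mki67, Top2a and the kinetochore genes lie far to the left of the HFD points, while those of Mcm5, Mcm7, Plk1, Cdc20 and Aurka reach or pass them.

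In SVC, Mki67 had 2.82 CPM for LFD, 55.2 and 35.3 in HFD libraries and 3.39, 6.37 and 3.79 in SW libraries, with a log2 fold change of -3.42 ± 0.39 (SE, adjusted p = 0.0362) between SW and HFD. Kif11 had 0.217 CPM for LFD, 13.8 and 10.7 in HFD libraries and 0.847, 1.42 and 1.18 in SW libraries, and a log2 fold change of -3.50 ± 0.43 (SE, adjusted p = 0.0362). Both genes showed no overlap between HFD and SW. Pcna had 20.6 CPM for LFD, 218 and 239 in HFD libraries and 83.8, 78.7 and 78.9 in SW libraries, at -1.60 ± 0.18 (SE, adjusted p = 0.0362). Mcm4 had 9.97 CPM for LFD, 26.1 and 18.6 in HFD libraries and 4.96, 8.75 and 5.49 in SW libraries and Rrm2 1.08 CPM for LFD, 19.9 and 14.5 in HFD libraries and 5.57, 7.33 and 6.79 in SW libraries. Both replication genes were lower in every SW library than in either HFD library, as were Ccna2 at 3.47 CPM for LFD, 26.1 and 20.6 in HFD libraries and 6.78, 6.37 and 8.62 in SW libraries and Top2a at 5.42 CPM for LFD, 44.6 and 30.9 in HFD libraries and 5.33, 8.49 and 4.83 in SW libraries. Kif20a was the 1 spindle gene that did not pass, at 3.68 CPM for LFD, 14 and 16.7 in HFD libraries and 15, 9.96 and 10.1 in SW libraries and a log2 fold change of -0.48 ± 0.32 (SE, adjusted p = 0.284).

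Other genes stood as high in some SW libraries as in HFD library 411. Mcm5 had 66.3 CPM for LFD, 43.7 and 147 in HFD libraries and 135, 105 and 159 in SW libraries, with a log2 fold change of 0.43 ± 0.47 (SE, adjusted p = 0.506). Mcm7 had 32.5 CPM for LFD, 38.5 and 61.5 in HFD libraries and 72.3, 62.3 and 71.1 in SW libraries, and Plk1 9.10 CPM for LFD, 10.3 and 17.7 in HFD libraries and 27.8, 20.6 and 17.5 in SW libraries. Aurka had 3.25 CPM for LFD, 8.38 and 14.7 in HFD libraries and 24.2, 20.9 and 15.2 in SW libraries and Cdc20 9.75 CPM for LFD, 11.3 and 21.9 in HFD libraries and 24.8, 22.9 and 17.6 in SW libraries. None of these 5 passed the test between SW and HFD. For each of them HFD library 212 was the lowest of the 5 HFD and SW libraries.

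The LFD group of SVC had 1 library, so its values have no replicate check and were not tested. Its summed level of the 38 genes was 367 CPM, below the 1030 and 1196 CPM of HFD libraries and the 692 to 794 CPM of SW libraries. Counts were few there. Bub1 had 0 of 5781902 counts, which allows up to 3 counts or 0.650 CPM, counting error only. Kif11 and Ndc80 had 1 count each, Cenpe and Nuf2 had 2, and Melk and Ttk had 3. In HFD libraries 212 and 411 the same genes had 106 and 72 counts (Bub1), 224 and 131 (Kif11), 163 and 78 (Ndc80), 167 and 56 (Cenpe), 164 and 98 (Nuf2), 116 and 98 (Melk) and 55 and 28 (Ttk). In SW libraries Bub1 had 5, 26 and 10 counts and Ndc80 6, 25 and 1, and Cenpf had 0 counts in library 414.

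Between the fractions of HFD mice, 3 of the 38 genes were higher in SVC (Mcm2, Mcm5 and Mcm7) and none was lower. Of all 17441 genes tested, 16.2% were higher in SVC and 12.9% lower. Their log2 fold changes were 0.76 ± 0.26 (SE, adjusted p = 0.0423), 1.28 ± 0.37 (SE, adjusted p = 0.0214) and 0.59 ± 0.18 (SE, adjusted p = 0.0289). In each case library 411 was the higher SVC library, with Mcm5 at 147 CPM there and 43.7 CPM in 212, against 36.5 to 40.8 CPM in HFD adipocytes. Without SVC library 411, adipocyte library 402 or adipocyte library 403 none of the 38 passed in edgeR (0, 3 and 4 at an unadjusted p under 0.05), without SVC library 212 there were 5, and with the GC correction only Mcm5 passed. Mcm2 had 23.2 CPM for LFD, 26.2 and 55.7 in HFD libraries and 38.9, 36.5 and 50.6 in SW libraries in SVC. Macrophage markers had 2 of 11 higher in SVC, where their sum was 8606 CPM in library 212 and 16580 in 411.

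In SW mice 14 genes were higher in SVC than in adipocytes and 13 were lower, where 35.6% of all genes were higher and 32.8% lower, shares near those of the 38 genes. The genes higher in SVC were Aurka, Aurkb, Bub1b, Ccnb1, Ccnb2, Cdc20, Cdca8, Kif20a, Mcm2, Mcm3, Mcm5, Mcm6, Mcm7 and Plk1. The genes lower in SVC were Bub1, Ccna2, Cenpe, Cenpf, Kif11, Kif23, Mcm4, Mki67, Ndc80, Nuf2, Pcna, Top2a and Tyms. Cdk1, Birc5, Ect2, Melk, Prc1, Racgap1, Rrm1, Rrm2, Tpx2, Ttk and Ube2c did not pass. Genes of some protein complexes split, while Ndc80 and Nuf2 of the NDC80 complex were both lower. Of the helicase subunits, Mcm5 was at 2.81 ± 0.36 (SE, adjusted p = 1.7e-05) on the log2 scale and Mcm4 at -1.36 ± 0.25 (SE, adjusted p = 0.000281). Of the checkpoint pair, Bub1b was at 1.07 ± 0.28 (SE, adjusted p = 0.00424) and Bub1 at -1.59 ± 0.39 (SE, adjusted p = 0.0027). Across roles, Plk1 was at 2.64 ± 0.29 (SE, adjusted p = 4.62e-06) and Ndc80 at -2.46 ± 0.54 (SE, adjusted p = 0.00116).

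The split ran along the base composition of the transcripts. The 14 genes higher in SVC had a GC content of 44.2% to 56.0% with a median of 51.6%, and the 13 lower genes 41.0% to 46.7% with a median of 43.4%. Plk1 stood at 56%, Mcm5 at 51.9% and Bub1b at 50.4%, against 45.5% for Mcm4, 42.4% for Ndc80 and 41% for Bub1. Across the 38 genes, which are not independent replicates and share the same libraries, Pearson's r between GC content and the log2 fold change was 0.78 and Spearman's rho 0.80. After a correction for GC content fitted over all genes, r was 0.31. With it 17 of the 38 genes were higher in SVC and 3 lower (Mcm4, Mki67 and Ube2c), and Ect2 was now higher. The 12 calls that held in every alternative were Aurka, Bub1b, Ccnb2, Cdc20, Kif20a, Mcm2, Mcm3, Mcm5, Mcm7 and Plk1 above, and Mcm4 and Mki67 below, the adipocyte level. Macrophage markers were higher in SVC for 9 of 11.

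**Figure D5:**
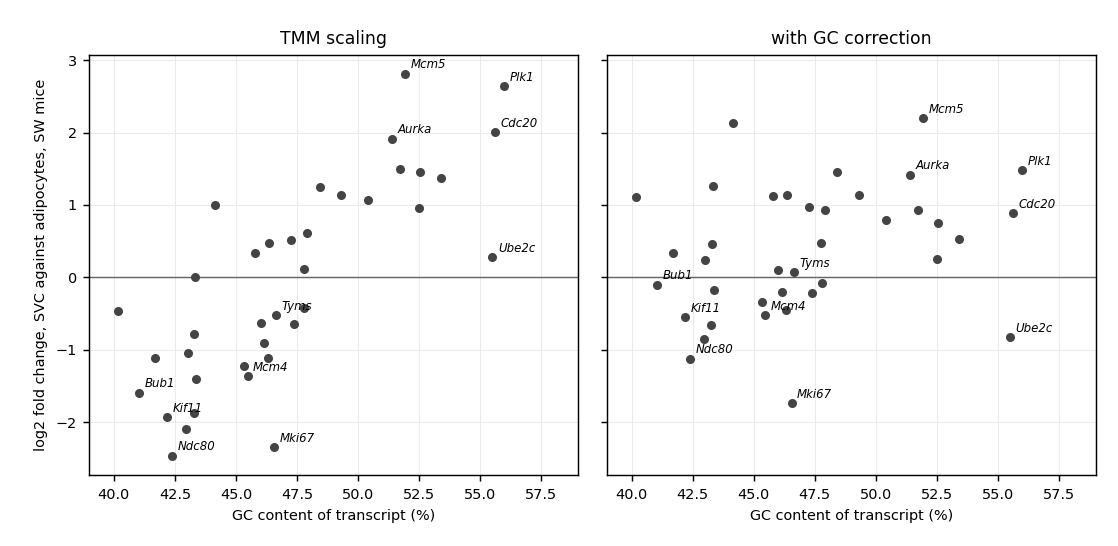
Log2 fold change of SVC against adipocyte libraries in SW mice over the GC content of the transcript for the 38 genes, 1 point per gene, with TMM scaling (left) and after the GC correction (right). Of the genes that passed the test on the left, those lower in SVC have at most 46.7% GC and those higher at least 44.2%. Genes that did not pass are drawn alike. Over all 38 genes r is 0.78 on the left and 0.31 on the right.

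Pearson's r with GC content was also 0.85 for SVC against adipocytes in HFD mice and 0.78 for SW against HFD in SVC. For the interaction described below it was 0.69. After the GC correction these values of r were 0.32, 0.36 and 0.25. In the adipocyte comparisons r was weaker, -0.29 for HFD against LFD and 0.42 for SW against HFD. With the GC correction 37 and 25 genes passed there, where 37 and 29 had before. The 25 included Mcm7, which was not among the 29, and lacked Ccna2, Cdk1, Melk, Mki67 and Ttk. Across the 38 genes, Spearman's rho between transcript length and log2 fold change in adipocytes was 0.11 for HFD against LFD. For SW against HFD, rho with length was -0.33 in adipocytes and -0.52 in SVC. A test of the interaction of diet and fraction, SW against HFD, called 6 of the 38 genes with a higher value in SVC (Aurka, Kif20a, Mcm3, Mcm5, Mcm7 and Plk1) and 5 with a lower value (Kif11, Mcm4, Mki67, Ndc80 and Pcna), against 11.4% and 15.7% of all genes tested, so the share of the 38 genes was near that of the table. Plk1 had the largest positive difference, 2.14 ± 0.42 (SE, adjusted p = 0.00372), with a log2 fold change of 0.58 ± 0.34 in SVC and -1.48 ± 0.25 in adipocytes. Pcna had a difference of -1.25 ± 0.25 (SE, adjusted p = 0.00382). The 11 calls became 2 with the GC correction (Plk1 and Rrm1) and 4 without SVC library 212 (Kif11, Mcm3, Pcna and Plk1). It was also 4 without SVC library 412 or adipocyte library 403, 5 without adipocyte library 402, 408 or 409, 6 without 401 or 407, and 7 without SVC library 414.

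The other lists in SVC are read for SW against HFD beside 11.7% of all genes lower and 5.71% higher, and none of their calls was left with the GC correction or without SW library 412 or 413. Of the 38 further mitosis genes, 14 were lower and none higher, led by Hmmr at -2.92 ± 0.41 (SE, adjusted p = 0.0362) and Nusap1 at -2.21 ± 0.37 (SE, adjusted p = 0.0362). Origin genes had 6 of 17 lower, polymerase and fork genes 3 of 22, and pocket protein, E2F and MuvB genes 4 of 20, with none higher in these 3 lists. Of the G1 genes only Ccnd3 passed, higher at 1.31 ± 0.31 (SE, adjusted p = 0.0431), and of the CDK inhibitors only Cdkn1c, higher at 1.25 ± 0.21 (SE, adjusted p = 0.0362). Among p53 and its targets 1 was higher and 3 lower. Macrophage markers had 1 of 11 lower, Mrc1 at -1.55 ± 0.25 (SE, adjusted p = 0.0362), with a summed level of 8606 and 16580 CPM in HFD and 10922 to 16699 CPM in SW libraries. Fibroblast and progenitor markers had 2 of 8 higher and 1 lower, adipocyte markers 1 of 10 higher and 1 lower, endothelial markers 1 of 6 higher, and T cell, B cell, mesothelial, neutrophil and erythroid markers none. The part of these cells in the SVC values was not tested.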

How the data were processed

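RNA of epididymal adipocytes and SVC was measured by RNA sequencing. Per the labels and the study's methods, the authors aligned reads to the mouse transcriptome (Bowtie2) and ran RSEM. The values they deposited are its estimated counts for each gene, which are whole numbers here and not normalized. The submitters' processing notes name mm9, and tool versions and annotation release are not given in the sources used here. The labels list 18 libraries in 26 records, 8 of them with 2 runs. Each record is labelled paired-end or single. In SVC, every SW replicate has both layouts, while HFD and LFD include replicates with single records only. Every adipocyte replicate has a paired-end record. The layout behind each value column is not stated, so layout cannot be told apart from diet, fraction or the GC tilt. Columns of the tables carry fraction, diet and a number absent from the labels. The 15 whose names show a group served as its replicates, and 3 value columns that match no group were left out. Whether replicates came from separate mice is not stated for the columns, so p-values measure the spread between these libraries. No pair of libraries of the same group agreed within sampling noise (chi-square per degree of freedom 12.8 or more), and pairs across groups were not compared.

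Fits used edgeR 4.0.16 under R 4.3.3 (genes kept by filterByExpr at 10 counts, TMM scaling, robust quasi-likelihood test, Benjamini-Hochberg over all genes tested, threshold 0.05), with 1 fit for adipocytes, 1 for SVC and 1 for both fractions. The fits were tested on simulated data, drawn from a common mean for each gene. Those data had no GC or length tilt, so the test does not cover such tilts. The genes and lists were chosen with earlier results of these data known. Every one of the 38 genes is named; values per library are given for the gene with the smallest p of each role, for genes whose call differs from most of their role and for genes with 3 or fewer counts in a whole group, and other lists name up to 4 genes by smallest p. Transcript length and GC content are those of the longest transcript of each gene in GENCODE M21 on GRCm38 (37607 of 39017 identifiers matched), used without coordinates. Promoters came from RefSeq. Alternatives were DESeq2 1.42.0, limma-voom 3.58.1, other scalings and filters, thinning, leaving out each library and, chosen after seeing the data, GC and length corrections.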

Additional observations from a re-analysis of the deposited data

Results flagged for a closer look

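For 11 of the 38 genes, the SW against HFD change in SVC was unlike that in adipocytes by edgeR's test of the interaction. The share was near that of the whole table, where 4727 of 17441 genes passed, 11.4% higher and 15.7% lower. The value was higher in SVC for Plk1 (2.14 ± 0.42 (SE, adjusted p = 0.00372)), Mcm5 (1.53 ± 0.52 (SE, adjusted p = 0.0435)), Aurka (1.39 ± 0.47 (SE, adjusted p = 0.0421)), Kif20a (1.24 ± 0.42 (SE, adjusted p = 0.044)), Mcm3 (0.99 ± 0.25 (SE, adjusted p = 0.0124)) and Mcm7 (0.79 ± 0.25 (SE, adjusted p = 0.0345)), given as differences of log2 fold changes. It was lower in SVC for Ndc80 (-2.09 ± 0.73 (SE, adjusted p = 0.0476)), Mki67 (-2.08 ± 0.63 (SE, adjusted p = 0.0259)), Kif11 (-1.63 ± 0.40 (SE, adjusted p = 0.0103)), Pcna (-1.25 ± 0.25 (SE, adjusted p = 0.00382)) and Mcm4 (-1.04 ± 0.36 (SE, adjusted p = 0.0451)). The 6 genes above had a transcript GC content of 48.4% to 56.0% and the 5 below 42.2% to 46.6%, and the part of GC content in the difference was not tested beyond the correction, under which Plk1 alone of the 11 passed.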

How the results depend on the processing

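In adipocytes, HFD against LFD gave 31 to 37 calls among the 38 genes under every alternative and 33 to 37 without each library. SW against HFD (29 calls) gave 23 to 33 under other settings and 13 to 31 without each library, and SW against LFD (15) gave 11 to 18 and 5 to 28. In SVC, SW against HFD (13) gave 11 to 17 under other settings except the GC correction, which gave 0, and 0 to 19 without each library. SVC against adipocytes in HFD mice (3) gave 1 with limma-voom, 1 with the GC correction, 2 to 4 under the others and 0 to 5 without each library. In SW mice (27) the count was 18 to 27, and 19 to 25 without each library. The difference between fractions (11) gave 2 with the GC correction, 8 to 12 under the others and 4 to 13 without each library. The filter of 10 counts in every library left 32 of the 38 genes in adipocytes, 27 in SVC and 25 over both. The GC and length corrections were chosen after seeing the data. With the GC correction, SVC against adipocytes in SW mice changed sign for Nuf2 (0.34, adjusted p = 0.53) and Tyms (0.0756, adjusted p = 0.809), Ect2 became higher (1.11, adjusted p = 0.0069) and Ube2c lower (-0.82, adjusted p = 0.0389). The cause of these changes was not tested. Where a library was left out of SVC HFD, the lone library was taken to vary like the other groups. No paired analysis was possible because the columns carry numbers that are in no label. Genes at 3 counts or fewer in the SVC LFD library are at the limit of its depth.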
